A study of Homo sapiens with 6 samples.

Results

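The genes described here are 34 genes of the NRF2 antioxidant and NADPH programme, taken by gene symbol from tables that list 19903 genes. They comprise NRF2 itself and its inhibitor, enzymes of glutathione, thioredoxin and NADPH metabolism, heme and iron genes, efflux pumps and detoxification enzymes. All 34 symbols were found. The study sequenced RNA of human lung cancer cell lines, so labelled, at passage 5, and 6 libraries are analysed. Each of 3 lines gave 1 library with a vector for malin and 1 with an empty vector, so neither vector was replicated within a line. The lines were A549, H1299 and a line labelled H2030, and NHLRC1 is the gene of malin, an E3 ubiquitin ligase. A549 and H1299 were derived from non-small-cell lung tumours, and A549 is known to carry a mutation in KEAP1. The labels do not say whether a library came from a clone or a pool of cells, and they name no treatment.

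NRF2, the product of NFE2L2, is a transcription factor that KEAP1 holds at low levels in unstressed cells by presenting it for ubiquitination and degradation. When KEAP1 is oxidised or mutated, NRF2 accumulates, pairs with a small MAF protein and binds antioxidant response elements beside genes for glutathione synthesis, thioredoxin, NADPH supply, iron storage and drug efflux. KEAP1 mutations are frequent in lung adenocarcinoma, and the control acts mainly on NRF2 protein, which these data do not measure.

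The core of the antioxidant response element can be written TGACNNNGC, and the windows printed here show where these letters lie beside 5 members called higher in A549 and beside KEAP1. RefSeq promoter windows of GRCh38.p14, 250 bases before to 50 bases after a gene's start, were available for 24 of the 34 members. TGACNNNGC occurred on either strand in 11 of these 24 genes (45.8%), against 16.1% of all 27305 genes with a window and 18.3% of 14080 protein-coding genes of the tables. The longer form TGACTCAGC, which contains the AP-1 motif TGACTCA, occurred in 2 members (8.33%) against 0.689% of all genes. Of these members, 6 had more than 1 window, and known NRF2 targets are in part known through this element, so the shares describe the list and are no test of it. The sequences run 5′ to 3′ on the gene's strand, and the capitals mark the core; GCTTAGTCA, GCTTTGTCA and GCAAAGTCA are the core read on the opposite strand.
GCLM, chr1:93909436-93909484, minus strand: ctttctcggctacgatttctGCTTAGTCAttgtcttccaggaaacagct
ME1, chr6:83431160-83431208, minus strand: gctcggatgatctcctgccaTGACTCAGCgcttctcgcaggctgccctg
TXNRD1, chr12:104286910-104286958, plus strand: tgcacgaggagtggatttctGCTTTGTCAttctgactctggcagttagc
EPHX1, chr1:225825256-225825304, plus strand: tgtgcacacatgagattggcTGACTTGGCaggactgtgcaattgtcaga
CBR1, chr21:36069845-36069893, plus strand: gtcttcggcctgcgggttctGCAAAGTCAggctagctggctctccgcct
KEAP1, chr19:10502774-10502822, minus strand: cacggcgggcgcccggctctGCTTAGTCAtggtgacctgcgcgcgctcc
GCLM and KEAP1 held the same 9 letters of the core, 25 and 22 bases upstream of a start. The mRNA of GCLM was higher in A549 than in the other lines, and the difference of KEAP1 did not pass the test. The core of ME1 lay 128 bases upstream and overlapped TGACTCA.

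The deposited values were FPKM, fragment numbers corrected for library size and the length of the transcript, so levels of different genes are per length. Steps between low FPKM values put the depth at 8400000 to 10700000 fragments per library. NHLRC1 stood at 6.82 FPKM with malin and 1.21 FPKM with empty vector in A549, at 119 and 2.85 FPKM in H1299, and at 3.69 and 0.18 FPKM in the H2030-labelled libraries. The deposited column of the H2030-labelled malin library is headed with an abbreviation of HEK293T, a line of embryonic kidney cells. Both libraries of that line are therefore called the H2030-labelled libraries, and the counts of A549 against both lines are followed by those against H1299. Epithelial markers (keratins, EPCAM and CDH1) summed to 3214 and 3917 FPKM in A549 with malin and empty vector. The sums were 952 and 953 FPKM in H1299 and 159 and 183 FPKM in the H2030-labelled libraries. KRT8 and KRT18, with KRT7 in A549, made up most of these sums. EPCAM was instead highest in the H2030-labelled libraries, at 5.41 and 8.55 FPKM, against 0.95 and 1.75 FPKM in A549. CDH1 stood at 2.71 and 2.56 FPKM in the H2030-labelled libraries and 1.67 and 3.27 FPKM in A549. Both genes were lowest in H1299. Markers of lung epithelium summed to at most 10.8 FPKM in any library and those of fibroblasts and endothelium to at most 9.44 FPKM. Those of immune cells summed to 6.93 to 55.6 FPKM. Most of the H1299 sums was CD68, at 53.25 and 45.69 FPKM with malin and empty vector, while PTPRC was at most 0.07 FPKM in any library. Kidney development markers summed to 20.8 and 17.5 FPKM in the H2030-labelled libraries and 7.38 to 12.7 FPKM in the others. Neurofilament genes summed to 90.7 and 63.7 FPKM in the H2030-labelled libraries and 27.3 to 55.0 FPKM in the others. The part of line identity in the results was not tested. In bulk samples, fewer cells that express a gene and less of its RNA per cell cannot be told apart.

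**Figure D1:**
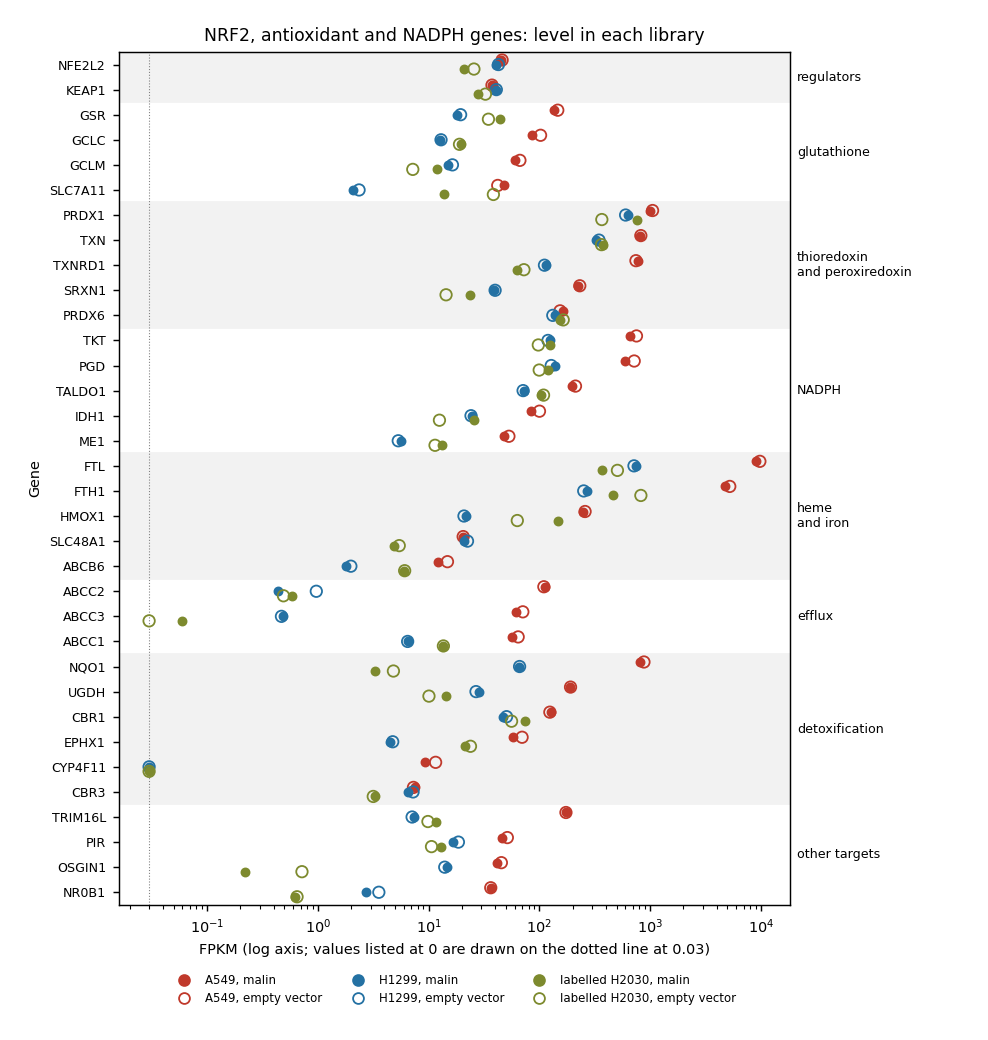
FPKM on a log axis, with values listed at 0 drawn on the dotted line, of the 34 members, grouped by role, in each of the 6 libraries. Colours stand for the lines, filled points for malin and open points for empty vector. Both A549 points lie above the other 4 for 31 of 34 members, and KEAP1, PRDX6 and SLC48A1 are the exceptions.

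The comparison of lines asks how the programme stands in A549, known to carry a KEAP1 mutation, beside H1299 and the H2030-labelled libraries. The labels give no KEAP1 genotype, so the KEAP1 status of the other lines is not known here. Most of it stood higher in A549: ferritin, NQO1, the thioredoxin and glutathione enzymes, the NADPH enzymes and the efflux pumps. The mRNA of NFE2L2 differed by less than 2-fold, and that of KEAP1 did not pass the test. The members were chosen with earlier results of these data known, so the counts describe the list and are no test of it. Both A549 libraries lay above the other 4 for 31 of 34 members, as they did for 18.6% of genes tested. By limma on log2(FPKM + 1) over 12184 protein-coding genes, 31 of 33 members tested were higher in A549 and 0 were lower at a Benjamini-Hochberg adjusted p of 0.05, while 23.4% of all genes were called higher and 42.4% lower. The median difference of the members was 2.45 on the log2 scale, beside -0.21 for all genes tested. Of the members, 27 were at least 2-fold higher and 22 at least 4-fold higher, against 9% and 3.55% of all genes. ABCC2, ABCC3 and CYP4F11 passed the filter of a mean of 1 FPKM through A549 alone and so had to differ, which fixed part of these counts. Of the other 31 members 28 had both A549 libraries on top, and of the other 30 tested 28 were called higher, with a median of 2.40. Each line has 2 libraries that carry different vectors, so the p-values measure the spread between those libraries and not between independent cultures of a line. With median-of-ratios scaling the median of all genes moved to 0.0041, the calls over all genes were 4067 higher and 3806 lower against 2857 and 5164 without it, and all 33 members were called higher. With the A549 and H1299 libraries alone, 29 members were called higher, beside 4145 higher and 5229 lower of all 12184 genes.

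**Figure D2:**
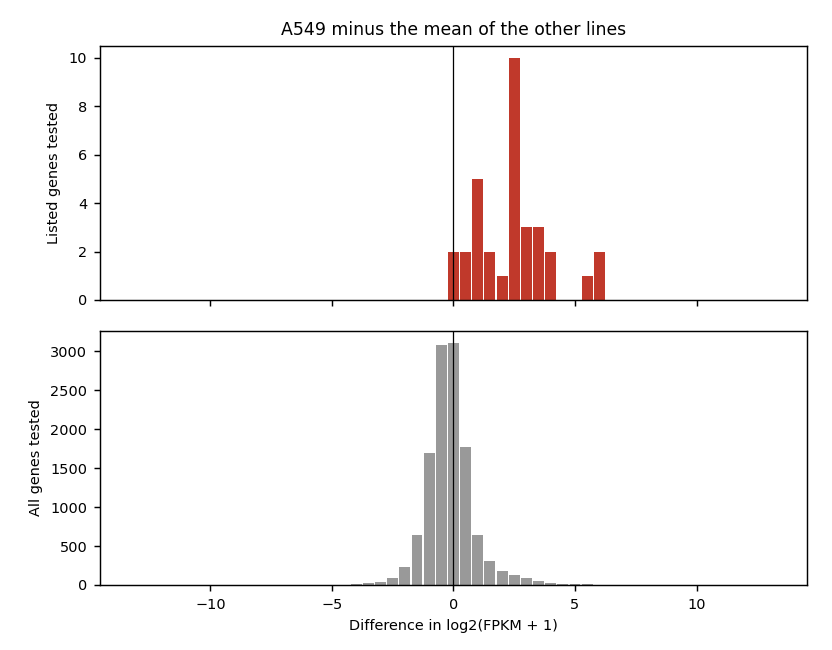
Histograms of the difference, A549 minus the mean of the other lines on the log2(FPKM + 1) scale, for the 33 members tested in the upper panel and all 12184 genes tested in the lower, with bars that count genes. The members' median is 2.45 and that of all genes -0.21, and the members reach 6.13.

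The 2 regulators differed less in mRNA than most members. NFE2L2 stood at 44.8 and 46.2 FPKM in A549 with malin and empty vector, 40.4 and 42.8 FPKM in H1299, and 21.0 and 25.7 FPKM in the H2030-labelled libraries. A549 and H1299 lay close together, and the H2030-labelled libraries were lowest. The difference between A549 and the other lines was 0.53 ± 0.09 on the log2 scale (SE, limma adjusted p = 0.00321). It was 0.13 ± 0.11 against H1299 (limma adjusted p = 0.336), and without the A549 malin library the comparison with both lines lost its call (limma adjusted p = 0.0752). KEAP1 stood at 37.1 and 37.4 FPKM in A549, 41.0 and 40.9 FPKM in H1299, and 27.9 and 32.6 FPKM in the H2030-labelled libraries. KEAP1 in A549 thus lay between the other lines, with a difference of 0.08 ± 0.09 (limma adjusted p = 0.455). Under median-of-ratios scaling the KEAP1 difference was 0.32 and passed the test (limma adjusted p = 0.0184), and against H1299 alone it was -0.13 (limma adjusted p = 0.312). Its call against the H2030-labelled libraries (0.30, limma adjusted p = 0.0467) was lost in 7 alternatives, among them without either A549 library, without either H1299 library and without the H2030-labelled malin library.

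All 4 glutathione genes were called higher in A549, where 23.4% of all genes were. GCLC encodes the catalytic and GCLM the modifier subunit of glutamate-cysteine ligase, the rate-limiting enzyme of glutathione synthesis. GCLC reached 85.3 and 103 FPKM in A549 with malin and empty vector, against 12.7 and 12.97 FPKM in H1299 and 19.8 and 19.0 FPKM in the H2030-labelled libraries. GCLM reached 60.9 and 66.9 FPKM in A549, against 15.1 and 16.4 FPKM in H1299 and 11.9 and 7.21 FPKM in the H2030-labelled libraries. The mean of A549 was 7.33-fold that of H1299 for GCLC and 4.06-fold for GCLM. GSR, which reduces oxidised glutathione with NADPH, stood at 136 and 147 FPKM in A549 and at 17.95 to 44.5 FPKM in the other 4 libraries. Both A549 libraries lay above the other 4 for each of these 3 genes, as they did for 18.6% of genes tested. SLC7A11, the cystine importer that supplies cysteine for glutathione, stood at 48.2 and 42.2 FPKM in A549 and 2.10 and 2.36 FPKM in H1299. In the H2030-labelled libraries it stood at 13.8 and 38.5 FPKM. It was 20.3-fold higher in A549 than in H1299 by the ratio of means, and it was the only glutathione member not called between A549 and the H2030-labelled libraries, with a difference of 0.93 (limma adjusted p = 0.0646). Without the A549 or the H2030-labelled empty-vector library that difference was 1.41 or 1.66 and passed the test (limma adjusted p = 0.0349 and 2.57e-05).

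Of the 5 thioredoxin and peroxiredoxin genes, 4 were called higher in A549, where 23.4% of all genes were. TXNRD1, the reductase that recharges thioredoxin with NADPH, stood at 784 and 746 FPKM in A549, 114 and 111 FPKM in H1299, and 62.8 and 72.7 FPKM in the H2030-labelled libraries. SRXN1, which repairs over-oxidised peroxiredoxins, stood at 225 and 232 FPKM in A549, 39.1 and 39.9 FPKM in H1299, and 23.9 and 14.4 FPKM in the H2030-labelled libraries. Both were several-fold higher in A549, with ratios of means over H1299 of 6.79 for TXNRD1 and 5.78 for SRXN1. TXN, thioredoxin itself, differed less, at 808 and 826 FPKM in A549 and 322 to 376 FPKM in the other 4 libraries. PRDX1, an abundant peroxidase that thioredoxin recharges, stood at 1008 and 1054 FPKM in A549 and 367 to 761 FPKM in the others, and its call in the comparison with both lines (limma adjusted p = 0.0178) was lost without the A549 empty-vector library (limma adjusted p = 0.199) or the H1299 malin library (limma adjusted p = 0.062). PRDX6, a peroxidase that uses glutathione, did not pass the test: it ranged over 132 to 165 FPKM in the 6 libraries, with a difference of 0.12 ± 0.08 (limma adjusted p = 0.224). It passed under median-of-ratios scaling (0.37) and without the H2030-labelled empty-vector library (0.16), with limma adjusted p = 0.00774 and 0.00859.

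All 5 genes of NADPH supply and the adjoining sugar phosphate steps were called higher in A549, where 23.4% of all genes were. PGD, an NADPH-producing enzyme of the pentose phosphate pathway, stood at 589 and 719 FPKM in A549, 139 and 128 FPKM in H1299, and 119 and 99.9 FPKM in the H2030-labelled libraries. TKT and TALDO1 are the enzymes of the non-oxidative branch. TKT stood at 660 and 754 FPKM in A549 and 98.0 to 126 FPKM in the others, and TALDO1 at 197 and 212 FPKM in A549 and 71.5 to 109 FPKM in the others. ME1, the cytosolic malic enzyme, stood at 47.9 and 53.2 FPKM in A549, 5.59 and 5.33 FPKM in H1299, and 13.2 and 11.5 FPKM in the H2030-labelled libraries. IDH1, the cytosolic isocitrate dehydrogenase, stood at 83.6 and 100 FPKM in A549 and 12.6 to 25.5 FPKM in the others. A549 was above the other lines without overlap for each of the 5, as it was for 18.6% of genes tested. The ratios of means over H1299 lay between 2.83 for TALDO1 and 9.25 for ME1.

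Ferritin, the iron storage shell, gave the most abundant mRNAs of the list in A549. FTL, its light chain, stood at 9069 and 9810 FPKM in A549 with malin and empty vector, 750 and 716 FPKM in H1299, and 367 and 508 FPKM in the H2030-labelled libraries. FTH1, its heavy chain, stood at 4725 and 5247 FPKM in A549, 269 and 252 FPKM in H1299, and 467 and 827 FPKM in the H2030-labelled libraries. FTL ranked 1 and FTH1 ranked 2 of all 19903 genes in both A549 libraries, whereas in the other libraries FTL ranked 94 to 149 and FTH1 72 to 279. The 2 chains together made up 2.89% and 3.13% of the summed FPKM in A549, 0.211% and 0.201% in H1299, and 0.179% and 0.287% in the H2030-labelled libraries. The differences between A549 and the other lines were 4.07 ± 0.12 for FTL and 3.63 ± 0.18 for FTH1 (SE, limma adjusted p = 8.3e-06 and 4.26e-05). Both genes have processed pseudogenes that can share fragments, and 62.4% of the exonic bases of FTH1 overlap a gene on the opposite strand in GENCODE 29, so their absolute levels are uncertain. Exonic overlap with another gene was present for 16 of the 34 members, on the same strand for 6 and on the opposite strand for 12, with 85% of the exonic bases of SRXN1 and 54.7% of those of ABCB6 on the same strand, and 42.2% of CBR3 and 24.9% of PRDX1 on the opposite strand. The strand setting of the counting is not known here, so the levels of these genes carry the same limit.

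HMOX1, which opens heme and releases its iron, stood at 249 and 259 FPKM in A549, 21.97 and 20.9 FPKM in H1299, and 147 and 63.3 FPKM in the H2030-labelled libraries. The lines did not overlap, but the 2 H2030-labelled libraries lay far apart, and the call against them was lost without the A549 empty-vector library (limma adjusted p = 0.0547). ABCB6, a porphyrin transporter, stood at 12.1 and 14.8 FPKM in A549 and 1.79 to 6.09 FPKM in the others. SLC48A1, which carries heme into the cytosol, lay close together in A549 (20.5 and 20.6 FPKM) and H1299 (20.8 and 22.5 FPKM) and was at 4.88 and 5.44 FPKM in the H2030-labelled libraries. Its call in the comparison of A549 with both lines (0.86 ± 0.10, limma adjusted p = 0.000602) therefore rests on the H2030-labelled libraries, and with A549 and H1299 alone the difference was -0.08 (limma adjusted p = 0.38).

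Of the 3 efflux pumps, 2 were nearly silent outside A549. ABCC2, which exports glutathione and glucuronide conjugates, stood at 113 and 110 FPKM in A549, 0.44 and 0.97 FPKM in H1299, and 0.58 and 0.49 FPKM in the H2030-labelled libraries. ABCC3, a related pump, stood at 62.2 and 71.0 FPKM in A549, 0.49 and 0.47 FPKM in H1299, and was at 0.06 FPKM with malin and listed at 0 with empty vector in the H2030-labelled libraries. Neither reached 1 FPKM in any of the 4 other libraries. On the log2(FPKM + 1) scale, which understates the change of low genes, the differences were 6.13 ± 0.15 for ABCC2 and 5.77 ± 0.12 for ABCC3 (SE). They are given as a description, without a test, since the filter fixed their direction. ABCC1, the multidrug pump MRP1, was at 56.8 and 64.5 FPKM in A549 and at 6.48 to 13.6 FPKM in the others.

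Among detoxification enzymes NQO1 separated all 3 lines. NQO1, which reduces quinones with NADPH or NADH, stood at 811 and 881 FPKM in A549, 66.3 and 66.4 FPKM in H1299, and 3.29 and 4.82 FPKM in the H2030-labelled libraries. The ratio of means was 12.8 over H1299 and 209 over the H2030-labelled libraries, and the difference from both was 5.53 ± 0.11 (SE, limma adjusted p = 2.68e-06). UGDH, which makes UDP-glucuronate for glucuronidation, stood at 188 and 192 FPKM in A549, 28.5 and 26.8 FPKM in H1299, and 14.3 and 10.1 FPKM in the H2030-labelled libraries, a difference of 3.30 ± 0.12 (limma adjusted p = 1.58e-05). The order A549, H1299, H2030-labelled libraries was the same for both genes. EPHX1, the microsomal epoxide hydrolase, was instead lowest in H1299, at 57.6 and 70.0 FPKM in A549, 4.53 and 4.75 FPKM in H1299, and 21.5 and 23.9 FPKM in the H2030-labelled libraries. CYP4F11, a fatty acid hydroxylase, stood at 9.21 and 11.6 FPKM in A549 and was listed at 0 in all 4 other libraries, a difference of 3.50 ± 0.13 (SE), also given without a test. Fragments shared with other CYP4F genes are possible. The carbonyl reductases differed least: CBR1 stood at 127 and 125 FPKM in A549 and 47.1 to 73.9 FPKM in the others, while CBR3 stood at 7.48 and 7.31 FPKM in A549, 6.52 and 7.25 FPKM in H1299, and 3.28 and 3.17 FPKM in the H2030-labelled libraries. CBR3 was not called between A549 and H1299 (0.09, limma adjusted p = 0.574), and its call against both lines (limma adjusted p = 0.00709) was lost without either A549 library or without the H1299 malin library (limma adjusted p = 0.0508 to 0.106).

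Among the remaining members, NR0B1, a nuclear receptor described as NRF2-dependent in KEAP1-mutant lung cancer cells, stood at 36.7 and 36.5 FPKM in A549, 2.74 and 3.56 FPKM in H1299, and 0.62 and 0.65 FPKM in the H2030-labelled libraries. Its difference of 3.85 ± 0.12 (SE, limma adjusted p = 1.09e-05) was among the 8 largest of the members. OSGIN1, a growth inhibitor induced by oxidative stress, was 41.7 and 45.5 FPKM in A549, 14.7 and 14.0 FPKM in H1299, and 0.22 and 0.72 FPKM in the H2030-labelled libraries. PIR, an iron-containing nuclear protein, stood at 45.7 and 51.5 FPKM in A549 and 10.6 to 18.6 FPKM in the others. TRIM16L stood at 173 and 174 FPKM in A549 and 7.11 to 11.6 FPKM in the others. RefSeq lists TRIM16L as a transcribed pseudogene, so it was tested only in the fit over all gene classes, where its difference was 4.15 ± 0.09 (SE, limma adjusted p = 4.64e-06), and its near-copy TRIM16, at 153 and 151 FPKM in A549 and 4.92 to 6.15 FPKM in the others, can share its fragments.

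**Figure D3:**
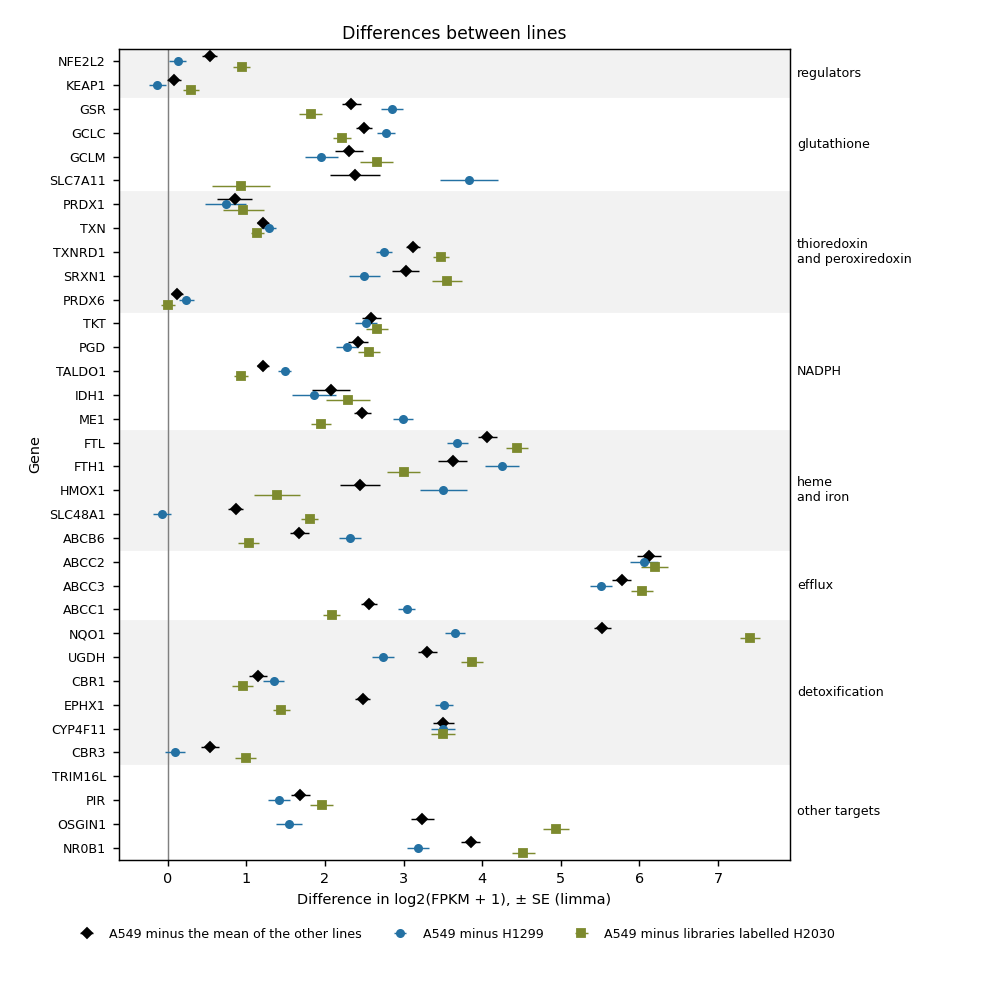
Differences in log2(FPKM + 1) of A549 minus the mean of the other lines (diamonds), minus H1299 (circles) and minus the H2030-labelled libraries (squares), with standard errors from limma, for the 33 members tested (TRIM16L was not tested as a protein-coding gene). The contrasts use the same A549 libraries, and most members lie to the right of 0 in each. SLC7A11 is at 3.84 against H1299 and 0.93 against the H2030-labelled libraries, and OSGIN1 is far larger against the H2030-labelled libraries.

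Taken one line at a time, A549 was called higher than H1299 for 27 of 33 members and lower for 0, where 27.2% of all genes were called higher and 34.5% lower. The 6 members not called were NFE2L2, KEAP1, PRDX1, PRDX6, CBR3 and SLC48A1, of which PRDX1 missed the threshold narrowly (0.74, limma adjusted p = 0.0504) and passed it in 7 of the alternatives, among them without the A549 malin library or either H2030-labelled library. PRDX6 (0.24, limma adjusted p = 0.0633) passed it in 6, among them both scalings and without either H2030-labelled library. Against the H2030-labelled libraries, 31 members were called higher in A549 and 0 lower, where 22.1% of all genes were called higher and 45% lower. The 2 members not called there were SLC7A11 and PRDX6. These 2 contrasts share the A549 libraries, so their likeness is partly built in.

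H1299 and the H2030-labelled libraries showed no common direction. H1299 was called higher for 14 members and lower for 11, with 8 not called, where 23.8% of all genes were called higher and 40.9% lower. Higher in H1299 were NQO1 (log2 difference 3.75), OSGIN1 (3.41), SLC48A1 (1.88), NR0B1 (1.34) and UGDH (1.14). Of these, OSGIN1 and NR0B1 lay under 1 FPKM in the H2030-labelled libraries. Lower in H1299 were SLC7A11 (-2.90), HMOX1 (-2.12), EPHX1 (-2.07), ABCB6 (-1.29) and FTH1 (-1.25). Iron and heme genes stood on both sides, and NQO1 and SLC7A11 marked the ends of the order. The counts moved with the library left out, between 9 and 18 members higher and between 8 and 14 lower.

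The comparison of vectors asks how the same genes stood with the malin vector. Across the 3 lines, with line as a block, 0 of 12184 genes passed limma's adjusted threshold and 213 had an unadjusted p under 0.05, and 0 of the 33 members did either (percent called 0 in both directions). The largest mean differences of members, malin minus empty vector, were 0.40 ± 0.24 for HMOX1, 0.35 ± 0.21 for PRDX1, 0.25 ± 0.23 for IDH1, 0.21 ± 0.16 for SRXN1, -0.29 ± 0.17 for FTH1 and -0.45 ± 0.30 for SLC7A11 (SE, limma adjusted p = 0.927 for each). Those of NFE2L2 and KEAP1 were -0.13 and -0.08. A count of 0 at 3 pairs does not show that malin left these genes alone. The H2030-labelled libraries gave most of the larger means, as the values per line show. No member was higher with malin in all 3 lines (11% of all genes were), and 5 were lower in all 3 (11.3% of all genes were), namely NFE2L2, NQO1, ABCB6, EPHX1 and SLC48A1.

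**Figure D4:**
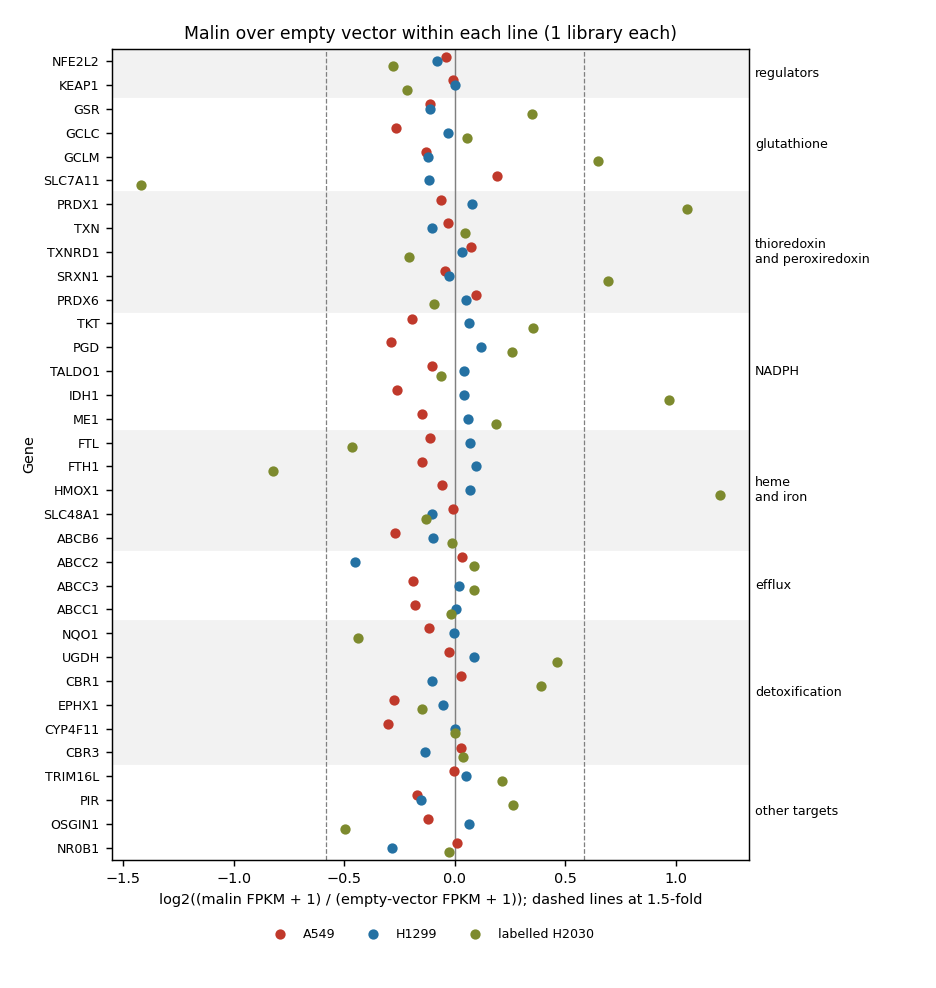
Log2((malin FPKM + 1)/(empty-vector FPKM + 1)) of the members in each line, 1 library per vector and so without error bars. The members lie between -0.30 and 0.19 in A549 and between -0.45 and 0.12 in H1299, and spread from -1.42 to 1.20 in the H2030-labelled libraries.

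In A549, 0 members were at least 1.5-fold higher or lower with malin, as were 0.55% and 0.583% of all genes. The differences were small and mostly negative: 26 of 33 members were lower with malin by any amount, as were 48.8% of all genes, and 7 were higher, as were 49.5%, with a median of -0.11. The lowest were CYP4F11 (-0.30), PGD (-0.29) and EPHX1 (-0.28). All 5 NADPH members and all 5 heme and iron members lay below 0. Within a line there is 1 library per vector, so none of these differences has a test or a replicate check.

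In H1299, where the malin mRNA was most abundant, 0 members passed 1.5-fold in either direction, as did 0.337% and 0.148% of all genes. By any amount, 16 members were higher and 16 lower, as were 51.5% and 46.7% of all genes, and CYP4F11 was listed at 0 in both libraries. The largest differences were ABCC2 (-0.45), NR0B1 (-0.29) and PIR (-0.16). ABCC2 and NR0B1 were at low levels in H1299, and PIR stood at 16.6 and 18.6 FPKM there with malin and empty vector. All 5 NADPH members lay above 0 in H1299, by at most 0.12.

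In the H2030-labelled libraries, 5 members were at least 1.5-fold higher with malin and 2 at least 1.5-fold lower, where 4.28% and 7.33% of all genes were. By any amount, 17 were higher and 15 lower, as were 45.9% and 53.2% of all genes. The pair differed more than those of the other lines over the whole transcriptome, and the malin library is the one whose column bears another line's name. HMOX1 stood at 147 FPKM with malin and 63.3 FPKM with empty vector, a ratio of 2.32 with an exact 95% interval of 2.15 to 2.5 that covers counting error only. PRDX1 stood at 761 and 367 FPKM, or 2.07-fold higher (interval 1.99 to 2.16). IDH1 stood at 25.5 and 12.6 FPKM, or 2.04-fold higher (interval 1.75 to 2.37). SRXN1 and GCLM were the other 2 higher members, at 23.9 and 14.4 FPKM and at 11.9 and 7.21 FPKM. SLC7A11 went the other way at 13.8 FPKM with malin and 38.5 FPKM with empty vector, a ratio of 0.358 (interval 0.335 to 0.381), and so did FTH1 at 467 and 827 FPKM, a ratio of 0.565 (0.545 to 0.585). In A549 and H1299 the same 7 genes lay between -0.26 and 0.19 on the log2 scale. GCLM and SLC7A11, both of glutathione supply, and HMOX1 and FTH1, both of heme and iron, thus differed in opposite directions in these libraries.

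The pathway genes outside the list, also chosen with earlier results known, were read for A549 against the other lines with the same fit, in which 23.4% of all genes were called higher and 42.4% lower, with a median of -0.21. Of 12 partners and regulators of NRF2, 6 were higher in A549 and 2 lower, and against H1299 4 were higher and 2 lower, where 27.2% and 34.5% of all genes were. SQSTM1, the autophagy receptor that binds KEAP1, stood at 681 and 698 FPKM in A549, 342 and 320 FPKM in H1299, and 37.1 and 53.8 FPKM in the H2030-labelled libraries, a difference of 2.49. MAFK and MAFG, small MAF partners, were higher by 1.41 and 0.89, and BACH1, a repressor that competes at the same elements, was lower by 0.96 at 5.81 and 5.39 FPKM in A549 and 8.71 to 14.1 FPKM in the others. The call of MAFG was lost without the A549 malin library (limma adjusted p = 0.117).

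Of 24 further glutathione and thioredoxin genes tested, 12 were higher in A549 (23.4% of all genes) and 7 lower (42.4%), with a median of 0.25. Against H1299, 14 were higher (27.2% of all genes) and 3 lower (34.5%). PRDX2 and TXNIP passed the filter through the H2030-labelled libraries alone, and of the other 22 genes 12 were higher and 5 lower. GGT1, which cleaves extracellular glutathione, was 3.70 higher and MGST1, a microsomal glutathione transferase, 3.15 higher, and near copies of GGT1 make its level uncertain. PRDX2, a cytosolic peroxiredoxin, stood at 0.20 and 0.92 FPKM in A549, was listed at 0 in both H1299 libraries, and reached 241 and 228 FPKM in the H2030-labelled libraries. TXNIP, the thioredoxin inhibitor, was at 0.03 FPKM and listed at 0 in A549, listed at 0 in both H1299 libraries, and at 15.2 and 22.9 FPKM in the H2030-labelled libraries. The lower calls of PRDX2 and TXNIP in A549 therefore rest on the H2030-labelled libraries: against H1299 alone the differences were 0.60 (limma adjusted p = 0.00987) and 0.02 (limma adjusted p = 0.838).

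Of 11 further pentose phosphate and NADPH genes tested, 5 were higher in A549 (23.4% of all genes) and 4 lower (42.4%). Against H1299, 4 were higher (27.2% of all genes) and 2 lower (34.5%). RPE, an epimerase of the non-oxidative branch, was 0.65 higher, at 48.9 and 53.2 FPKM in A549 and 29.8 to 35.1 FPKM in the others. NADK, which makes NADP from NAD, was lower by 1.23 at 14.3 and 14.2 FPKM in A549 and 24.9 to 49.3 FPKM in the others. PGLS, the lactonase just before PGD, was at 27.5 and 30.4 FPKM in A549 and 35.9 to 63.8 FPKM in the others, and its call (limma adjusted p = 0.0313) was lost in 5 alternatives, among them without either A549 library and without the H1299 malin library.

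Of 10 further heme and iron genes tested, 6 were higher in A549 (23.4% of all genes) and 1 lower (42.4%). Against H1299, 5 were higher (27.2% of all genes) and 0 lower (34.5%). BLVRB, a biliverdin reductase, was 1.64 higher and SLC40A1, the iron exporter ferroportin, 1.43 higher, while BACH2, a relative of BACH1, was lower by 1.23 and passed the filter only through the H2030-labelled libraries. Of 16 other reported NRF2 targets tested, 14 were higher in A549 (23.4% of all genes) and 1 lower (42.4%). Against H1299, 15 were higher (27.2% of all genes) and 1 lower (34.5%). AKR1B10, AKR1C1, AKR1C2, AKR1C3, ALDH3A1, GPX2 and CES1, 7 of the 16, passed the filter through A549 alone and so had to differ. Of the other 9, 7 were higher and 1 lower, with a median of 2.06. AKR1B10 stood at 982 and 1144 FPKM in A549 and at most 0.72 FPKM in the others, ALDH3A1 at 582 and 741 FPKM and at most 2.23 FPKM, and AKR1C3 at 652 and 786 FPKM and at most 1.42 FPKM. These reduce or oxidise reactive aldehydes and steroids, and the near-identical AKR1C genes can trade fragments.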

How the data were processed

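The authors deposited 1 table of FPKM per library, named so per the file headers, and cutadapt, FastQC, STAR, Cufflinks and hg38 appear, without versions, in the submitters' processing notes. The sources used here do not give the strand setting. Of 19903 genes, 37 had blank or date symbols and 35 were restored by Entrez identifier, and 17541 were protein coding in RefSeq. Limma 3.58.1 under R 4.3.3 was run on log2(FPKM + 1) of 12184 protein-coding genes whose mean FPKM was 1 or more (eBayes with an intensity trend, 2 residual degrees of freedom), tested on simulated data. Vector comparisons had cell line as a block, and line comparisons had vector as a term. Libraries with the same line label were treated as a pair, and their deviations correlated at 0.929 to 0.966 across genes. Members and lists were chosen with earlier results of these data known. Full statistics are given for the 8 members with the largest difference of A549 from the other lines, the 6 with the largest mean malin difference, and NFE2L2 and KEAP1 (without p for genes that passed the filter through A549 alone); per line, members past 1.5-fold or else the 3 largest; and up to 4 genes per further list. The values of 1 gene that this rule selects are not reported here. Calls lost in an alternative are named for other members after their values were seen. Fragment numbers came from low FPKM values, of which 77.8% to 79.5% lay within 0.2 of a whole number (40% by chance); the step was chosen from the same values. Alternatives were pseudocounts, filters, scalings, no trend, all gene classes, no block or vector term, and libraries left out. Scripts used matplotlib 3.10.9, scipy 1.17.1, pandas 2.3.3, numpy 2.4.6 and Python 3.11.15.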

Additional observations from a re-analysis of the deposited data

Results flagged for a closer look

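For the 7 members at least 1.5-fold higher or lower with malin in the H2030-labelled libraries, another line differed in the opposite direction, by less than 1.5-fold. Members of opposite sign with smaller differences are not listed. With a single library for each vector in a line, the difference between the lines was not tested. HMOX1 was 1.20 higher with malin on the log2(FPKM + 1) scale in the H2030-labelled libraries and differed by -0.06 in A549. PRDX1 was 1.05 higher there and differed by -0.06 in A549, and IDH1 was 0.97 higher and differed by -0.26 in A549. SRXN1 was 0.69 higher there, beside -0.05 in A549 and -0.03 in H1299, and GCLM was 0.65 higher, beside -0.13 in A549 and -0.12 in H1299. SLC7A11 differed by -1.42 there and by 0.19 in A549, and FTH1 differed by -0.82 there and by 0.10 in H1299. The 9 pairs of values all involve the H2030-labelled libraries, whose malin column carries another line's short name.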

How the results depend on the processing

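When each library was left out, most members kept their call as higher in A549 against both lines, H1299 and the H2030-labelled libraries, and none was called lower. The number of all genes called higher also moved in these fits, each of which leaves a line with 1 library. Between H1299 and the H2030-labelled libraries, 9 to 18 were higher and 8 to 14 lower. Malin called 0 to 1 genes when each line was left out (1 without the H2030-labelled libraries, and 0 members). The paired fit had line as its block, and without the block 0 genes were called. Past the fold in H1299, 1 member (ABCC2) was lower with a pseudocount of 0.1 or at the lower fold tried. In the H2030-labelled libraries, 3 members were higher with a pseudocount of 5, 2 at 2-fold and 9 at the lower fold tried, and 1 was lower at 2-fold and 5 at that lower fold. Signs turned for malin without the H2030-labelled libraries in SLC7A11 (0.04, range with each line left out -0.77 to 0.04), IDH1 (-0.11 to 0.51) and SRXN1 (-0.04 to 0.33); for A549 with H1299 alone in KEAP1 (-0.13), SLC48A1 (-0.08), TXNIP (0.02) and PRDX2 (0.60); for A549 minus H1299 in SLC48A1 under median-of-ratios scaling (0.02); for A549 minus the H2030-labelled libraries in PRDX6 under quantile normalization (-0.11) and without the malin library of A549 (-0.06) or of H2030 (-0.08, range with each library left out -0.08 to 0.09). For H1299 minus the H2030-labelled libraries they turned in TXN (0.14) and PRDX6 (0.05) under median-of-ratios scaling, without the H2030-labelled empty-vector library in PRDX1 (-0.30 to 0.75), TKT (-0.07 to 0.35), IDH1 (-0.11 to 0.97) and ABCC2 (-0.01), and without that of H1299 in ABCC2 (-0.12 to 0.39), each with its range. The cause was not tested. Of the values for single genes, 2389 were unchanged, 18 turned sign, and with the sign kept 50 lost a call and 34 gained one. For tested differences, unchanged meant the same direction and side of the threshold. For the per-line malin ratios, which have no test, it meant within the counting interval, which 7 values left. Depth limits ABCC2, ABCC3 and CYP4F11 outside A549, and OSGIN1 and NR0B1 in the H2030-labelled libraries, where these genes lie under 1 FPKM.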

Other observations

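Outside the list, SLC3A2, the partner chain of SLC7A11 in the cystine importer, stood at 103 FPKM with malin and 279 FPKM with empty vector in the H2030-labelled libraries, at 69.5 and 70.8 FPKM in H1299, and at 461 and 459 FPKM in A549. Both chains were thus lower with malin in the H2030-labelled libraries, without a test. GPX2, a glutathione peroxidase, stood at 32.2 FPKM with malin and 82.8 FPKM with empty vector in A549 and at most 0.10 FPKM in the other libraries. SPP1, the secreted phosphoprotein osteopontin, stood at 121 and 120 FPKM in A549 and 66.2 and 59.0 FPKM in H1299, against 0.27 FPKM with malin and 0 with empty vector in the H2030-labelled libraries. These genes were chosen after their values were seen.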
